A study of Mus musculus with 2 samples.

Results

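Transcripts of 10 genes of the Bcl2 family were followed in single cells of the mouse thymus. The genes were chosen by name among the 32285 gene rows of the deposited matrix. They are the survival genes Bcl2, Bcl2l1, Mcl1, Bcl2a1b and Bcl2a1d, the pore-forming effectors Bax and Bak1, and the BH3-only genes Bcl2l11, Pmaip1 and Bbc3, and all 10 were found.

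Proteins of this family decide at the outer mitochondrial membrane whether a cell enters apoptosis. The survival members hold Bax and Bak1 in check, and the BH3-only members, which answer to signals such as strong antigen receptor stimulation, DNA damage or loss of cytokine, release that hold. In the thymus, Bcl2l11 (Bim) is known for its part in removing strongly stimulated thymocytes, Bcl2 and Mcl1 for keeping selected cells alive, and Bcl2l1 (Bcl-xL) for survival at the double-positive stage.

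The cells were sorted as stage 0 invariant natural killer T (iNKT) cells (TCRβ+, CD1d tetramer+, CD24+, NK1.1-) or stage 3 iNKT cells (TCRβ+, CD1d tetramer+, NK1.1+, CD24-, CD44+) from Ctrl mice and from T-KO mice. The T-KO were Kidins220 fl/fl LckCre mice, in which Cre under the proximal Lck promoter, active from an early thymocyte stage on, deletes the floxed gene. The Ctrl were Kidins220 +/fl or Kidins220 +/+ LckCre mice, and all had a C57BL/6 background. The study gives an age range over all its mice and none for those sequenced here. Each genotype was a pool of 4 thymi, done in 2 replicas, and the resulting 8 populations were tagged with hashtag antibodies and run as 1 droplet library. The labels number the hashtags 1 to 8, whereas the hashtag counts lay on the matrix rows 11 to 18, and no source used here says which population each of the latter marks. Ctrl and T-KO cells were therefore not compared, no group was tested against another, and each row is given by itself.

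Of 16179 barcodes, 12147 had at least 1000 genes and at most 5% mitochondrial UMIs (unique molecular identifiers, 1 per captured transcript). A hashtag row was assigned to 10007 of these, 577 to 2162 cells per row. The odd-numbered rows held 4249 cells with row medians of 6500 to 8068 UMIs, and the even-numbered rows 5758 cells with medians of 3258 to 3804 UMIs. Levels are UMIs of a gene per 1000000 UMIs (CPM) of all cells of a group, and intervals are exact 95% Poisson intervals that cover counting error only. Free RNA in the droplets was not removed.

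The even rows carried the NK1.1 gene Klrb1c at 329 to 444 CPM and the iNKT receptor segment Trav11 at 39.5 to 56.5 CPM, against 4.8 to 6.6 and 0.2 to 1.1 CPM in the odd rows. Odd-row cells were split by the first match of at least 2 Cd79a, 5 Cst3, 1 Rag1 or 2 Ikzf2 UMIs, and the remainder is called the rest class. The Cd79a class (810 cells) held the B cell genes Cd79b and Ms4a1 at 792 and 574 CPM. The Cst3 class (972 cells) held H2-Aa, Xcr1 and Itgax, genes of dendritic cells, at 7494, 106 and 141 CPM. The Rag1 class (418 cells) held the immature thymocyte genes Dntt, Arpp21 and Cd8b1 at 779, 364 and 338 CPM, while Cd4, of the same marker list, was at 11.9 to 61.4 CPM by row, within the 17.2 to 103 CPM of the rest class or below it. The Ikzf2 class (1106 cells) held the genes Nr4a1, Pdcd1 and Tnfrsf9, which antigen receptor signals induce, at 317, 394 and 179 CPM. Trav11 was at 0.0 to 1.7 CPM in the Ikzf2 class of the 4 odd rows, so this class lacked a defining iNKT transcript that the even rows had. The rest class held 943 cells. The same gates left 96.1% of even-row cells in the rest class, so the even rows were used whole.

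The near-identical copies Bcl2a1b and Bcl2a1d gave the widest differences in this gene set, so their coding starts are shown beside the third expressed copy, Bcl2a1a, with capitals at the 7 positions among the first 120 where the 3 copies are not all the same. All 3 stretches lie in 1 coding exon on chromosome 9 of GRCm38 (mm10), at chr9:89199360-89199479 on the plus strand for Bcl2a1b, chr9:88731600-88731719 on the minus strand for Bcl2a1d and chr9:88957051-88957170 on the plus strand for Bcl2a1a.
Bcl2a1b: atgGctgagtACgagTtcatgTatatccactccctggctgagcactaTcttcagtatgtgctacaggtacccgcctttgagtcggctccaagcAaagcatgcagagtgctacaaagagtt
Bcl2a1d: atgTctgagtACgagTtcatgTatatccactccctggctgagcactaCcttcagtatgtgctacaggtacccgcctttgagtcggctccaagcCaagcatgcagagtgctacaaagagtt
Bcl2a1a: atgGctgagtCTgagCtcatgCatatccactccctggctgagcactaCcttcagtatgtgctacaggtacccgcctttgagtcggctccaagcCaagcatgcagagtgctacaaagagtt

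Over the 516 coding bases, Bcl2a1b and Bcl2a1d differed at 6 positions, Bcl2a1b and Bcl2a1a at 11, and Bcl2a1d and Bcl2a1a at 7. Of all stretches of 50 bases in the GENCODE M21 transcript, 42.4% of those of Bcl2a1b, 20.5% of those of Bcl2a1d and 31.04% of those of Bcl2a1a occurred in no other copy. For 150 bases, 85.8% of those of Bcl2a1b, 69.7% of those of Bcl2a1d and 71.8% of those of Bcl2a1a did so. A read that fits several copies equally cannot be placed, so both the division of UMIs among the copies and their sum are uncertain.

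The promoters of Bcl2a1b and Bcl2a1d were read, beside that of Bcl2a1a, from the RefSeq windows of 250 bases before to 50 after the start site. The letters GAGGAAGT, searched on both strands and in capitals here, were found in all 3 copies and, among the other members with a listed promoter, in that of Bak1. Of 32851 promoters, 1052 (3.20%) held them. The 3 stretches below are nearly the same sequence, so letters found in any copy are likely in all. Their presence in all 3 is therefore no measure of enrichment and was not tied to the levels. The stretches lie at chr9:89199099-89199158 (plus strand, Bcl2a1b), chr9:88731921-88731980 (minus strand, Bcl2a1d) and chr9:88956790-88956849 (plus strand, Bcl2a1a).
Bcl2a1b: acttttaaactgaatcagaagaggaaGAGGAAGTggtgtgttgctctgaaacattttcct
Bcl2a1d: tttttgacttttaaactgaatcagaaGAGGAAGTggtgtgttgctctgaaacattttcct
Bcl2a1a: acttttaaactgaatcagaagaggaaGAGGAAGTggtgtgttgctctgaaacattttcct

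Across the 8 rows, Bcl2, Bbc3 and Bcl2a1b were higher in every even row than in every odd row, Pmaip1 and Bak1 were lower, and the remaining members overlapped. Such a division was common, since 28.1% of 7381 genes were higher and 36.2% lower in every even row than in every odd row. Bcl2, the founding survival member (chromosome 1), stood at 55.5, 60.5, 60.2 and 75.6 CPM in rows 11, 13, 15 and 17 and at 160, 168, 149 and 161 CPM in rows 12, 14, 16 and 18. Bbc3 (PUMA, a BH3-only target of p53) stood at 13.9, 12.5, 9.0 and 9.1 CPM in the same odd rows and at 53.8, 46.7, 47.7 and 58.8 CPM in the even ones. Both were thus high in every even row and low in every odd row. Pmaip1 (Noxa, which binds Mcl1) ran the other way, at 27.5, 13.8, 11.2 and 11.3 CPM in the odd rows and 3.5, 4.5, 3.9 and 4.7 CPM in the even rows. Row 11 had the highest Pmaip1 value.

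Bcl2a1b stood at 122, 67.0, 71.6 and 65.4 CPM in the odd rows and at 171, 164, 221 and 219 CPM in the even rows. Every even row was above every odd row, and row 11 was the highest odd row. Bcl2a1d stood at 93.5, 53.8, 54.8 and 49.8 CPM in the odd rows and at 82.8, 79.0, 116 and 129 CPM in the even rows. Here row 11 lay above rows 12 and 14, so the row groups overlapped. The Cst3 class held 43.0% of the UMIs of row 11 and 21.3% to 28.6% of those of the other 3 odd rows. The part of this difference in the row values was not tested.

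The other 5 members differed less between the pooled odd and the pooled even rows than those above, while single rows could differ. Mcl1 ranged from 192 CPM (181 to 204) in row 17 to 274 CPM (264 to 285) in row 11 among the odd rows. In the even rows it ranged from 239 to 263 CPM. Bax ranged from 180 to 189 CPM in the odd and from 185 to 237 CPM in the even rows. Bak1 ranged from 61.3 to 65.7 CPM and from 42.8 to 57.9 CPM, so that for Bak1 every odd row was above every even row by a small margin. Bcl2l1 (Bcl-xL) lay between 15.5 CPM (13.1 to 18.2) in row 11 and 25.2 CPM (20.9 to 30.0) in row 18, and the odd and even rows overlapped. Bcl2l11 lay between 29.7 CPM (27.0 to 32.7) in row 13 and 46.1 CPM (40.6 to 52.2) in row 17 among the odd rows. It kept to 33.2 to 35.0 CPM in the even rows, although its level differed widely among the classes within the odd rows.

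**Figure D1:**
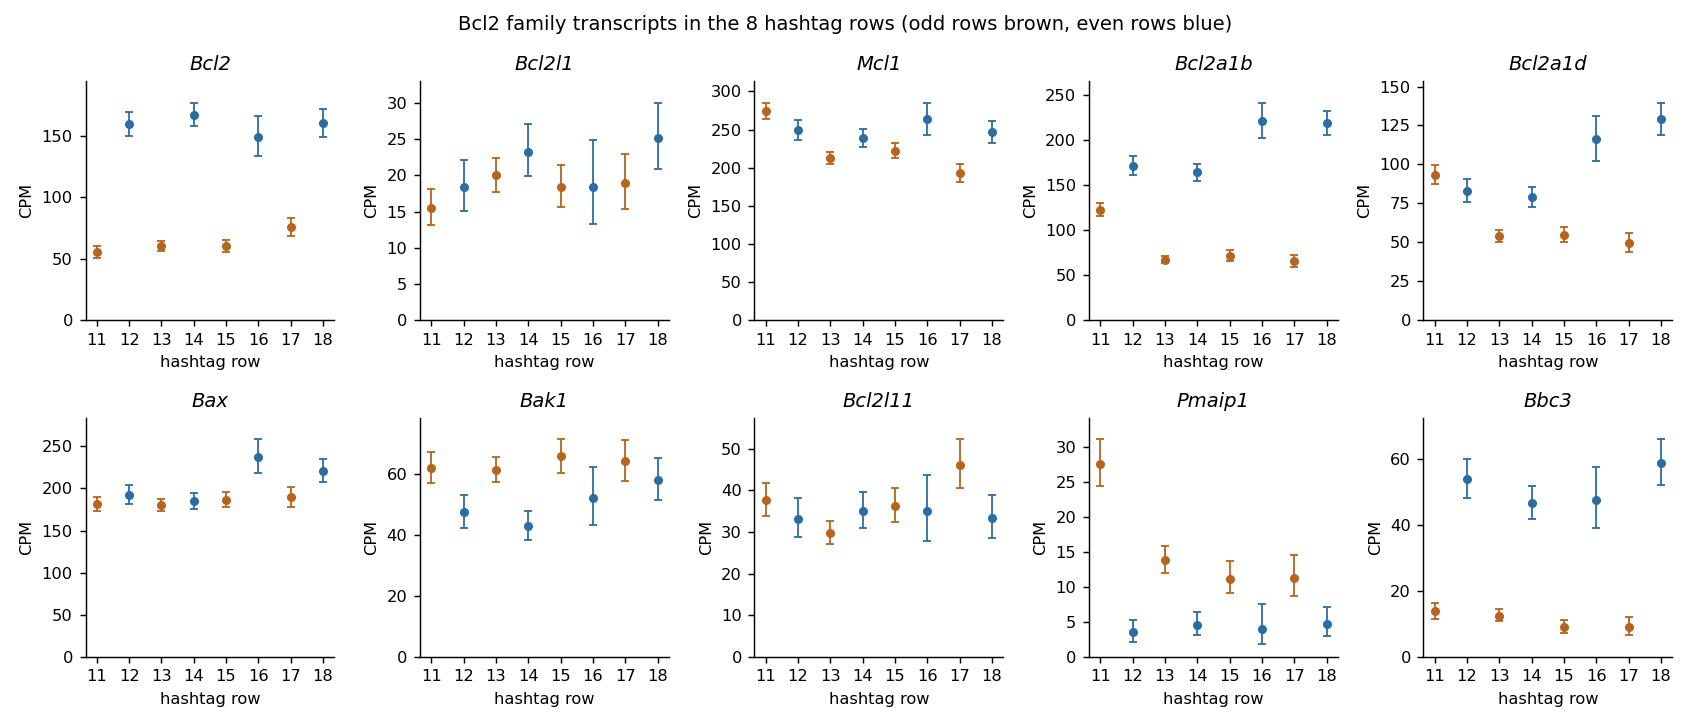
CPM of the 10 members (y axis) in each hashtag row (x axis), with exact 95% Poisson intervals as bars, odd rows in brown and even rows in blue. Bcl2, Bbc3 and Bcl2a1b lie higher in all 4 even rows, at 149 to 168, 46.7 to 58.8 and 164 to 221 CPM, and Pmaip1 and Bak1 lie lower.

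The classes within the odd rows were then set against each other, and the Ikzf2 class against the even rows. A log2 ratio is that of CPM with 10 CPM added on either side, which understates the change of low genes. A gene entered a comparison with at least 20 CPM in either group, and was called higher or lower when the ratio reached 2-fold and had the same direction in all 4 odd rows, or in all 16 pairs of an odd and an even row. The share of all genes called by that rule is given beside each count.

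In the Ikzf2 class against the even rows, Bcl2a1b, Bcl2a1d and Bbc3 were lower, and no member was called higher. Of 9 members that entered, 0 were called higher and 3 lower, while over all 7405 genes 10.1% were called higher and 7.13% lower. The median log2 ratio was -0.20 over these members and 0.20 over all genes.

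Bcl2a1b, an NF-kB-driven survival gene, stood at 15.3, 14.8, 11.7 and 5.7 CPM in the Ikzf2 class of rows 11, 13, 15 and 17, with a log2 ratio of -3.14 to the even rows. Bcl2a1d stood at 12.7, 6.4, 9.3 and 4.0 CPM, with a log2 ratio of -2.60. The highest of these values lay far below the lowest even row for either copy. Together the class gave 105 UMIs of Bcl2a1b, and H2-Aa, a gene high in the Cd79a and Cst3 classes, was at 39.3 CPM in it. The part of UMIs from other cells in these low values was not tested.

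Bbc3 stood at 20.3, 19.3, 10.7 and 14.2 CPM in the Ikzf2 class, with a log2 ratio of -1.23. This call was lost when cells with over 4000 genes were left out (-0.95) and when cells were averaged with equal weight (-0.96). Bcl2, at 89.8, 112, 124 and 138 CPM, lay under all 4 even rows with a log2 ratio of -0.43, short of 2-fold. Mcl1, at 210, 214, 221 and 202 CPM, was likewise under all even rows at -0.20. With Bcl2a1b, Bcl2a1d and Bbc3 this made 5 of 9 members lower in all 16 pairs of rows at any size, beside 22.9% of all genes. Bcl2l1, the remaining survival gene, had a log2 ratio of -0.19 and was higher in 2 of 16 pairs.

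Bcl2l11 was the 1 member higher in all 16 pairs, beside 45.9% of all genes. It stood at 89.8, 60.9, 59.9 and 80.05 CPM in the Ikzf2 class, above all even rows, with a log2 ratio of 0.83 that did not reach 2-fold. It reached it when cells with over 4000 genes were left out (1.19) and in the mean over cells (1.42). Bak1 had a log2 ratio of 0.28 and was higher in 15 of 16 pairs, while Bax (-0.08) was higher in 4 of 16. Pmaip1 did not enter, at 4.4 CPM in the Ikzf2 class and 4.2 CPM in the even rows.

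Within the odd rows, Bcl2l11 was highest in the Ikzf2 class in each of the 4 rows. In the rest class it stood at 47.1, 22.1, 33.4 and 22.0 CPM, in the Rag1 class at 44.5, 21.4, 25.4 and 21.8 CPM, in the Cd79a class at 12.6, 11.7, 18.5 and 13.8 CPM and in the Cst3 class at 31.3, 23.4, 33.0 and 49.6 CPM. The range of the Ikzf2 class, 59.9 to 89.8 CPM, overlapped with none of these. Of all genes, 20.3% were lower in the rest, 32.9% in the Rag1, 62.7% in the Cd79a and 54.9% in the Cst3 class, in all 4 rows. For this and the later members, the share of all genes with class ranges that do not overlap is not given. The lowest class was the Cd79a class, whose range overlapped with no other, whereas those of the rest, Rag1 and Cst3 classes overlapped with each other.

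Bcl2 had a different order. The rest class held it at 164, 86.7, 87.0 and 84.1 CPM, so that row 11 stood apart from the other 3 rows, and the range overlapped with the 89.8 to 138 CPM of the Ikzf2 class. Below these came the Cd79a class at 35.8, 42.2, 47.9 and 62.0 CPM, the Cst3 class at 21.2, 23.4, 25.9 and 29.6 CPM and the Rag1 class at 18.4, 18.5, 18.6 and 18.96 CPM. These 3 ranges did not overlap, and the 4 Rag1 values lay within 1 CPM of each other. In the rest class of row 11, the median cell had 2859 UMIs against 4847.5 to 7120 in the other rows, Cd4 was at 103 CPM against 17.2 to 41.2, and Il7r, the interleukin-7 receptor, at 137 CPM against 62.8 to 77.1. The part of these differences in the Bcl2 value was not tested.

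**Figure D2:**
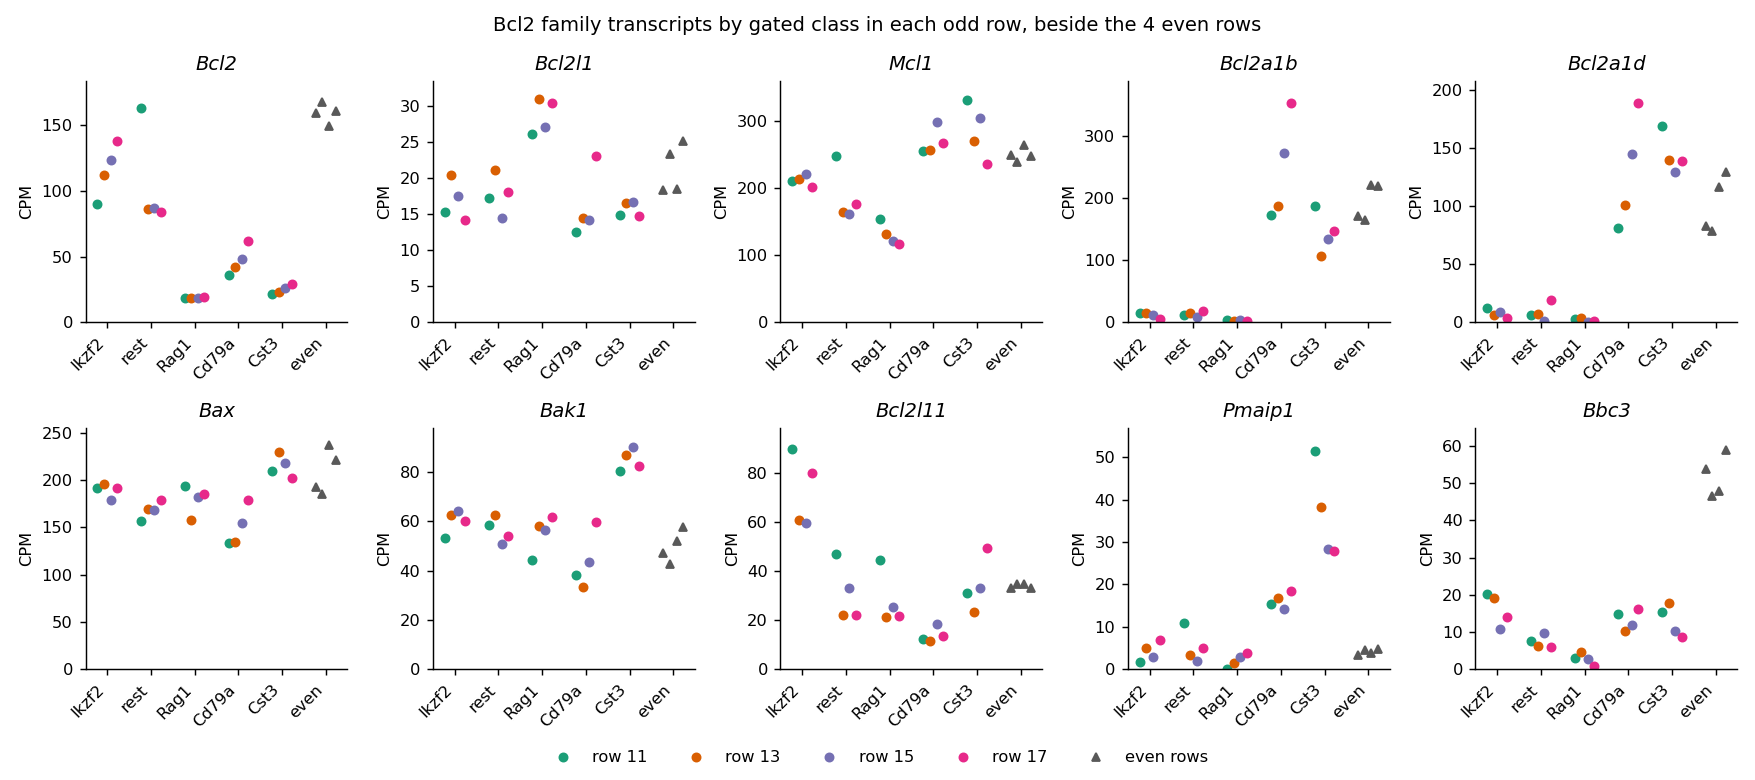
CPM of the 10 members (y axis) in the 5 classes of the odd rows, with 1 dot per odd row coloured by row, and in the 4 even rows as grey triangles. Bcl2l11 is highest in the Ikzf2 class (59.9 to 89.8 CPM), and Bcl2a1b and Bcl2a1d are high in the Cd79a and Cst3 classes and the even rows.

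For the rest class against the Ikzf2 class, no member was called. Of 5 members that entered, 0 were called in either direction, with 0.397% of all 7060 genes called higher and 1.6% lower. At any size, 16.9% of these genes were higher and 20.3% lower in all 4 rows. Bcl2l11 came nearest, lower in 4 of 4 rows with a log2 ratio of -0.97 and row values from -1.49 to -0.69. It was called lower with a pseudocount of 1 CPM (-1.16) and without row 11 (-1.09) or row 15 (-1.05). Bax was lower in 4 of 4 rows at -0.17, and Bcl2 (-0.16), Mcl1 (-0.20) and Bak1 (-0.07) were lower in 3 of 4.

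In the Rag1 class, Bcl2 and Bcl2l11 were lower than in the Ikzf2 class. Of 6 members that entered, 0 were called higher and 2 lower, beside 0.752% and 5.86% of all 7044 genes, of which 24.9% were higher and 32.9% lower in all 4 rows at any size. Bcl2 had a log2 ratio of -2.15, with row values from -2.35 to -1.81. Bcl2l11 had -1.15, with row values from -1.50 to -0.87, and this call was lost under 4 of 12 alternatives, among them the Ikzf2 gate at 1 UMI. Mcl1 was lower in 4 of 4 rows at -0.69 without reaching 2-fold.

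Bcl2l1 differed from the other survival genes in this class. It stood at 26.1, 30.9, 27.1 and 30.3 CPM in the Rag1 class and at 15.3, 20.4, 17.5 and 14.2 CPM in the Ikzf2 class, so the ranges did not overlap. The log2 ratio was 0.49, higher in 4 of 4 rows and short of 2-fold. The Rag1 range was also above those of the other 3 classes, of which the highest value was 23.0 CPM. The cells of this class had a median of 13561.5 UMIs, against 5517.5 in the Ikzf2 class, and in row 11 a median of 3684.5. Pmaip1 gave 0 UMIs in the Rag1 class of row 11, which allows up to 4.6 CPM, taken as the level of 3 UMIs and not from an exact interval.

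In the Cd79a class, Bcl2a1b and Bcl2a1d were higher and Bcl2 and Bcl2l11 lower than in the Ikzf2 class. Of 7 members that entered, 2 were called higher and 2 lower, beside 7.98% and 17.6% of all 7481 genes, and the median log2 ratio was -0.42 over these members and -0.52 over all genes. Bcl2a1b stood at 173, 186, 271 and 352 CPM, with a log2 ratio of 3.27. Bcl2a1d stood at 81.0, 101, 145 and 188 CPM, with a log2 ratio of 2.74. Row 11 was the lowest and row 17 the highest for both copies. Bcl2 had a log2 ratio of -1.28 and Bcl2l11 of -1.77. Mcl1 was higher in 4 of 4 rows at 0.29, and Bax (-0.42) and Bak1 (-0.56) lower in 4 of 4, all short of 2-fold, beside 15.3% of all genes higher and 62.7% lower in 4 of 4 at any size.

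In the Cst3 class, Bcl2a1b, Bcl2a1d and Pmaip1 were higher and Bcl2 lower than in the Ikzf2 class. Of 8 members that entered, 3 were called higher and 1 lower, beside 8.48% and 5.65% of all 7465 genes, and the median log2 ratio was 0.44 over these members and -0.26 over all genes. Bcl2a1b stood at 186, 106, 134 and 147 CPM (log2 ratio 2.82) and Bcl2a1d at 169, 140, 130 and 139 CPM (log2 ratio 3.18). Row 11 was highest for both copies.

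Pmaip1 stood at 51.5, 38.3, 28.3 and 27.8 CPM in the Cst3 class, with a log2 ratio of 1.79. It was at 14.2 to 18.4 CPM in the Cd79a class and at no more than 10.8 CPM in any row of the remaining classes, so the Cst3 range stood above all others. Bcl2 had a log2 ratio of -1.91. Bcl2l11 had -0.93, lower in 4 of 4 rows, and passed 2-fold under 4 of 12 alternatives. Mcl1 (0.47), Bak1 (0.41) and Bax (0.18) were higher in 4 of 4 rows without reaching 2-fold, as were 20.7% of all genes at any size, against 54.9% lower. The Bak1 range of 80.6 to 90.3 CPM was above that of every other class.

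**Figure D3:**
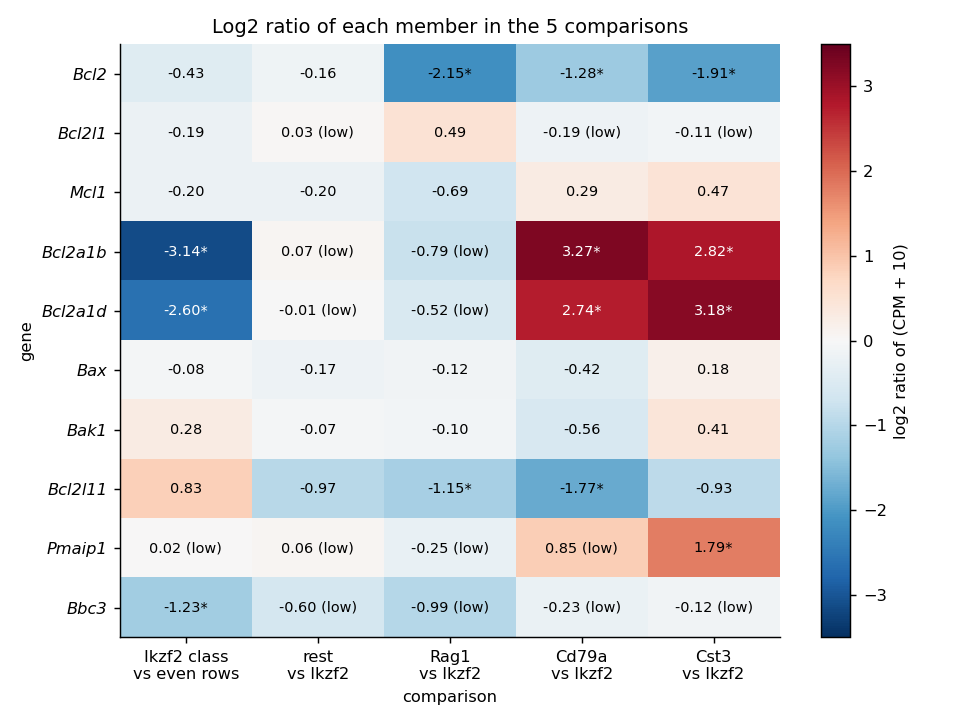
Log2 ratio of CPM + 10 (colour and number) for the 10 members (y axis) in the 5 comparisons (x axis). An asterisk marks a member called past 2-fold with 1 direction in all rows, and "low" one that did not reach 20 CPM in either group. Bcl2 is called lower in the Rag1, Cd79a and Cst3 classes.

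The UMIs placed on the copies of Bcl2a1 were divided in different proportions between the groups. Bcl2a1a made up 21 of the 5792 UMIs of the 3 copies in the even rows, 0.363% with an exact Clopper-Pearson interval of 0.225% to 0.554%. It made up 11.9% (10.6% to 13.3%) in the Cd79a class and 19.5% (18.3% to 20.7%) in the Cst3 class. By row the share of Bcl2a1a was 0.225% to 0.645% in the even rows, 9.27% to 13.2% in the Cd79a class and 18.5% to 22.0% in the Cst3 class, so these ranges did not overlap. Bcl2a1b took 65.6%, 58.1% and 40.1% in the same order, and Bcl2a1d 34.0%, 30.1% and 40.5%. In the Ikzf2 class 6 of 175 UMIs were from Bcl2a1a, 3.43% with an interval of 1.27% to 7.31%. The 3 transcripts are of near-equal length, at 817, 863 and 819 bases for the copies b, d and a. They differ in the stretches of 50 bases found in no other copy, at 42.4%, 20.5% and 31.04% in that order. The shares were not corrected for this, and the intervals do not cover it.

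**Figure D4:**
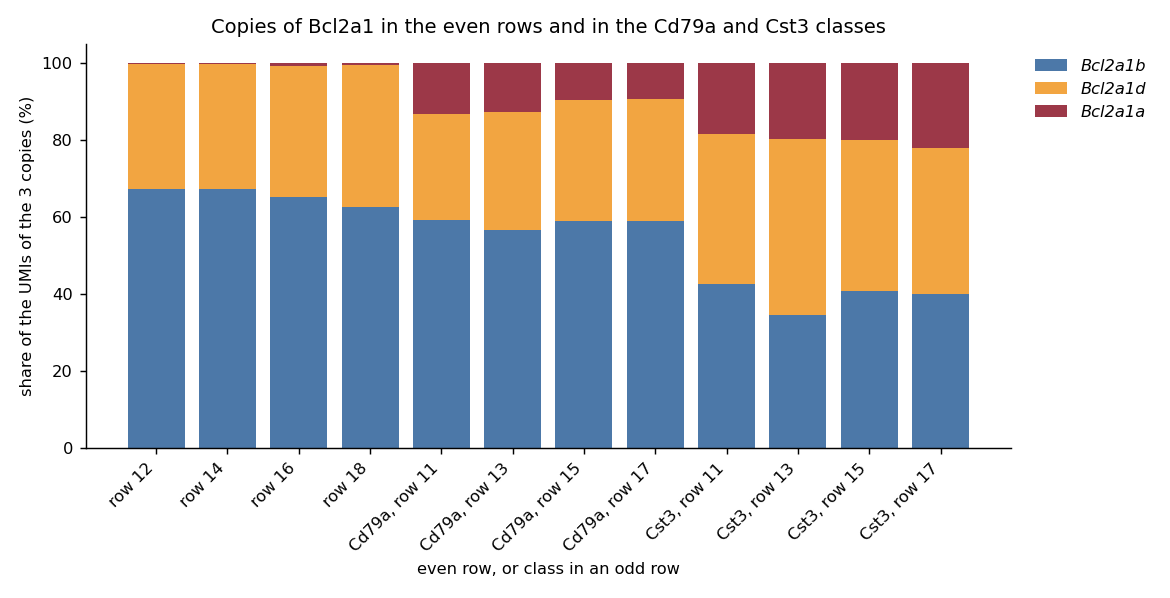
Share of each copy among the UMIs of Bcl2a1b, Bcl2a1d and Bcl2a1a (y axis, percent) in the 4 even rows and in the Cd79a and Cst3 classes of each odd row (x axis). Bcl2a1a is nearly absent from the even rows, at 0.225% to 0.645%.

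Within the Ikzf2 class, the members differed between cycling cells (at least 1 UMI of Mki67, Top2a or Birc5), remaining cells with a Tnfrsf9 UMI, and the other cells. The share of all genes with such orders is not given, and a gate of 1 UMI favours cells of greater depth. Outside the members, Cd5 was also lowest in cycling cells, with row medians of 205, 341 and 434 CPM in that order. Dntt was highest there, at 378, 30.8 and 107 CPM. Bcl2l11 stood at 52.1 CPM (46.5 to 58.1) in the 590 cycling cells, 127 CPM (109 to 148) in the 241 Tnfrsf9 cells and 88.7 CPM (72.1 to 108) in the 275 other cells. This order, Tnfrsf9 above other above cycling, held in 4 of 4 rows. In the Tnfrsf9 cells the rows read 131, 93.9, 122 and 209 CPM, with row 17 the highest.

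Bcl2 and Mcl1 were instead highest in the other cells. Bcl2 stood at 93.7 CPM in cycling, 164 CPM in Tnfrsf9 and 189 CPM in other cells, and was higher in the other cells than in either of the remaining groups in 4 of 4 rows. Mcl1 stood at 190, 237 and 304 CPM in the same order, and this order held in 4 of 4 rows. Bbc3 was at 11.1 CPM in cycling and 30.5 CPM in other cells, again higher in the latter in 4 of 4 rows. In the Tnfrsf9 cells Bbc3 rested on 38 UMIs, and the rows ranged from 7.7 to 43.6 CPM.

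Within the even rows the cells were split into cycling cells, then cells with at least 2 Ccl5 UMIs, then cells with an Izumo1r UMI, then the others, and the Bcl2a1 copies differed between these groups. Bcl2a1b stood at 245 CPM (229 to 261) in the 1002 Izumo1r cells, 157 CPM (145 to 170) in the 1089 Ccl5 cells, 178 CPM in the 1637 cycling cells and 176 CPM in the 2030 others. Bcl2a1d stood at 134, 71.4, 97.5 and 88.9 CPM in the same order. For both copies the Izumo1r cells were the highest group in 4 of 4 rows. Here too, the share of all genes with such orders is not given. Bcl2 ran the other way between these groups, at 146 CPM in the Izumo1r and 180 CPM in the Ccl5 cells, with the Ccl5 cells higher in 4 of 4 rows.

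With the even rows pooled, Bcl2l11 and Bbc3 were nearly level between these groups. Bcl2l11 lay between 32.9 and 37.4 CPM and Bbc3 between 49.4 and 54.4 CPM, with overlapping intervals. By row, Bcl2l11 was higher in the Izumo1r than in the Ccl5 cells in 4 of 4 rows, and its Ccl5 values ranged from 21.7 to 37.5 CPM. Bbc3 ranged by row from 35.3 to 73.6 CPM in the other cells. Mcl1 was highest in the other cells, at 267 CPM against 234 to 243 CPM, and this held in 4 of 4 rows.

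**Figure D5:**
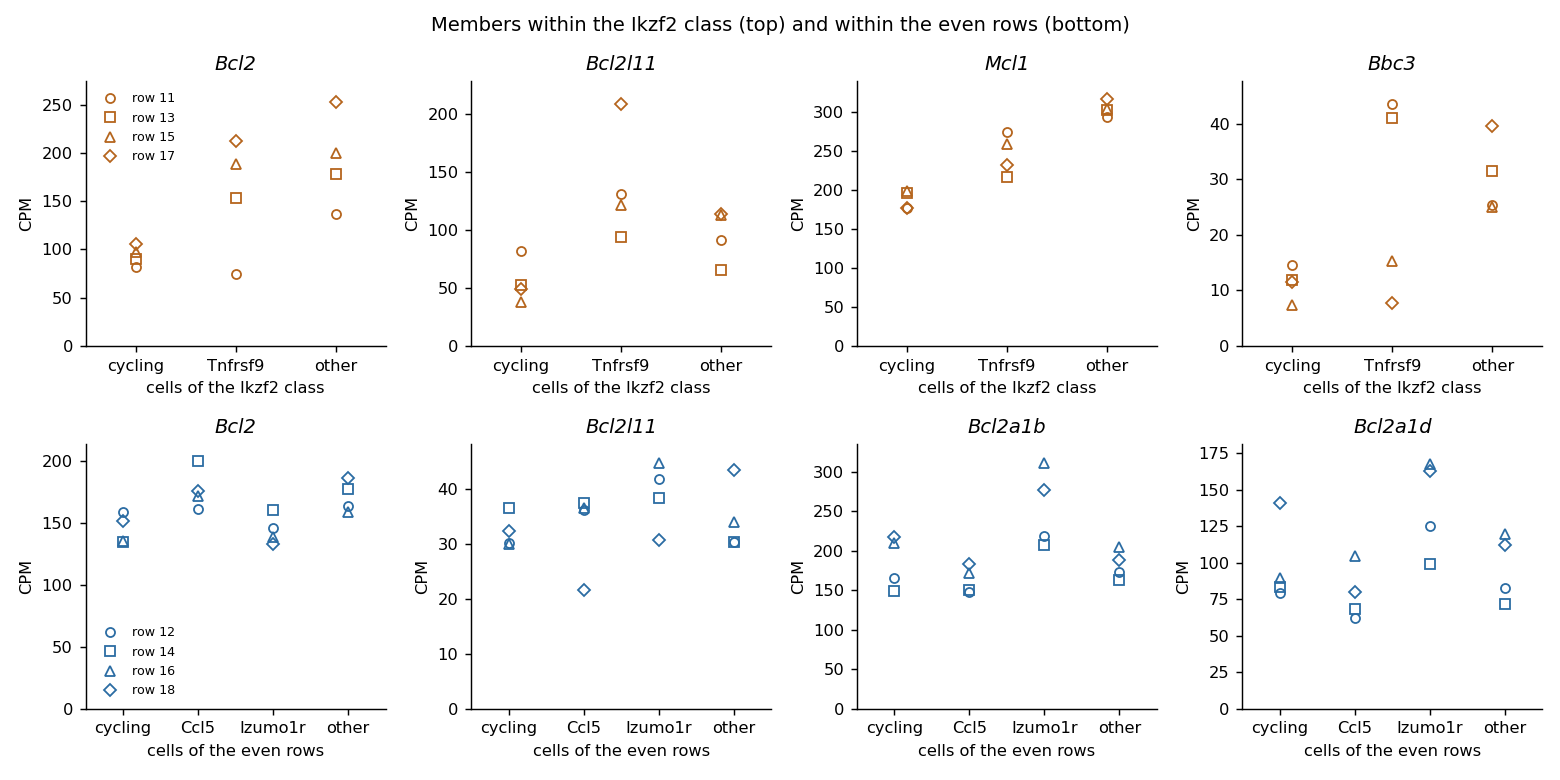
CPM (y axis) of members in the parts of the Ikzf2 class (top, 1 symbol per odd row) and of the even rows (bottom, 1 symbol per even row), with the gate that defines each part on the x axis. In every odd row Bcl2l11 is lowest in cycling and highest in Tnfrsf9 cells, and in every even row Bcl2a1b and Bcl2a1d are highest in Izumo1r cells.

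The other genes of the pathway were followed as fixed lists. Of 13 further Bcl2 family genes, 4 or 5 entered each comparison, and Bcl2a1a was the only call, higher in the Cd79a class (log2 ratio 2.28) and the Cst3 class (2.93). Among genes of the caspase pathway, Fas, a death receptor (1.49), and Birc3 (1.18) were higher in the Cd79a class, and Cycs, which encodes cytochrome c (-1.33), and Casp6 (-1.12) were lower. Birc3, an inhibitor of apoptosis driven by NF-kB, was also higher in the Cst3 class (1.15), and 0 genes of this list were called in the rest and Rag1 classes.

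Among 6 p53-related genes, Trp53 itself was lower in the Cd79a class (-1.41), Cdkn1a higher in the Cst3 class (2.50) and Ccng1 lower in the rest (-1.09) and Rag1 (-1.31) classes. Only 3 or 4 of these genes entered a comparison, and of the 3 that entered between the Ikzf2 class and the even rows 0 were called. A further list held 9 genes for cytokine receptors and transcription factors. Of these, the receptor chains Il7r (-3.75) and Il2rb (-2.01) were lower in the Ikzf2 class than in the even rows. Nr4a1 (3.61), which antigen receptor signals induce, was higher there. Nr4a1 and Il2rb were lower than in the Ikzf2 class in the rest, Rag1, Cd79a and Cst3 classes, with Foxo1 lower in the rest, Rag1 and Cst3 classes, Il7r in the Cd79a class, and Rel and Nfkb1 in the Rag1 class.

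Of 9 immediate early and heat shock genes, which cell handling can induce, Junb was lower in the Ikzf2 class than in the even rows (-2.32). Against the Ikzf2 class, Egr1, Ier2 and Junb were lower in the Rag1 class. Fos, Fosb and Jun were higher in the Cd79a class, and the same 3 with Hspa1a and Hspa1b in the Cst3 class, Fos with log2 ratios of 2.01 and 1.97. The Bcl2a1 copies were higher in both these classes and Pmaip1 in the Cst3 class, and the part of cell handling in their levels was not tested. Birc3, Casp6, Il7r in the Cd79a class, Foxo1 in the Cst3 class, Ccng1 in the Rag1 class and Jun were named after their values had been seen.

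The genes with the profile most like a member were sought over 24 groups, the 4 even rows and the 20 combinations of odd row and class, among 5712 genes. Pearson's r of log2(CPM + 10) is a description here, since the groups share 1 library and differ in depth. Bcl2 was most like Pacsin1 (0.96), then Rapgef6, Gramd1a, Rab37 and Pde7a (0.94 to 0.92). Bcl2l11 had weaker partners, 9530068E07Rik (0.86), Trav3-3, Csnk1d, Git2 and Rab10. Bcl2a1b was most like Cd44 (0.98), Bhlhe40, Bcl2a1d, Cyba and B2m (0.97). Among the members, Bcl2a1b and Bcl2a1d had r = 0.98, and Mcl1 had 0.82 with Bcl2a1b and 0.83 with Bcl2a1d. Next came Pmaip1 with Bcl2a1d (0.71) and with Mcl1 (0.69), Bcl2 with Bbc3 (0.65) and Bax with Bak1 (0.64). The lowest value was that of Bcl2l1 and Mcl1, at -0.64.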

How the data were processed

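Per the labels, polyadenylated RNA of the sorted thymocytes was captured in droplets with 10x Genomics 5′ chemistry, beside a library of hashtag oligonucleotides. The authors' counting step was Cell Ranger (version 6.0.0, prebuilt mm10), and the deposited counts are raw UMIs per gene or hashtag row and barcode, not normalized.

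A barcode was kept if it had 1000 genes or more and no more than 5% mitochondrial UMIs, and was given the hashtag row with at least 80% of at least 10 hashtag UMIs. That step left out barcodes with more mixed hashtag UMIs, while doublets between rows with unequal tagging may remain. No doublet caller was run, and cells with over 4000 genes were left out as an alternative. UMIs were summed per row and class and divided by the group total. With 1 library and no map from rows to populations, no test was made, and a 2-fold ratio with 1 direction in all rows stood in for it (pseudocount 10 CPM, at least 20 CPM in either group). Named genes were the 10 members, called genes of the fixed lists (at most 8 per comparison by size) and the 5 closest profiles of Bcl2, Bcl2l11 and Bcl2a1b over groups of at least 50 cells, among genes reaching 50 CPM. The members and lists were chosen with earlier results of these data known. Some genes of the lists are not reported here. Alternatives were HTODemux of Seurat 5.3.0 in R 4.3.3 (quantile 0.99), filters of 500 genes and 10% mitochondrial UMIs, 90% of at least 20 hashtag UMIs, other totals, means over cells, a pseudocount of 1, an Ikzf2 gate of 1 UMI, and leaving out each row. Positions are from GENCODE M21 on GRCm38, and the promoters from RefSeq on that build. Python 3.11.15 was used.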

Additional observations from a re-analysis of the deposited data

Results flagged for a closer look

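In each set of 4 rows, a value was picked out when its gap to the nearest of the others was too large a part of the whole range by Dixon's 95% critical value, which chance passes in about 1 of 20 sets. Of 70 sets, 5 were picked out, where 3.5 are expected by chance, and all 5 were row 11. Over all its cells, row 11 had Bcl2a1b at 122 CPM against 65.4 to 71.6 CPM in the other odd rows, Bcl2a1d at 93.5 CPM against 49.8 to 54.8 CPM, and Pmaip1 at 27.5 CPM against 11.2 to 13.8 CPM. In its rest class, row 11 had Bcl2 at 164 CPM against 84.1 to 87.0 CPM, and Mcl1 at 248 CPM against 162 to 175 CPM.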

How the results depend on the processing

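Rows could not be paired with each other, because the labels give the hashtag rows no replicate numbers. The comparisons of classes within the odd rows took their direction within each row. No called log2 ratio changed direction under any alternative, and 116 of 128 recomputed counts of called members stayed within 1.5 times the value given. Against the even rows, 1 member, Bcl2l11, was called higher when cells with over 4000 genes were left out and in the mean over cells, in place of 0. In the rest class, 1 was called lower with a pseudocount of 1 CPM, and leaving out each row gave 0 to 1, again Bcl2l11. In the Rag1 class, 1 in place of 2 was called lower with filters of 500 genes and 10% mitochondrial UMIs, without cells of over 4000 genes and with the Ikzf2 gate at 1 UMI, since Bcl2l11 dropped out. In the mean over cells the count stayed at 2 because Bbc3 (-1.18) took the place of Bcl2l11, and Bbc3 was also called lower without mitochondrial, ribosomal protein and Gm genes in the total (-1.12). In the Cd79a class, Pmaip1 was called higher in the mean over cells (1.13). In the Cst3 class, 2 in place of 1 were called lower with those filters, without cells of over 4000 genes, in the mean over cells and with a pseudocount of 1 CPM, since Bcl2l11 was added. The causes were not tested. Of 480 recomputed row levels, 330 stayed within their Poisson interval, and of 640 log2 ratios 590 moved by less than the spread between rows. Members at a few CPM, such as Pmaip1, Bbc3 and the Bcl2a1 copies in the Rag1 class, rest on fewer than 20 UMIs in the class, and smaller differences there were not detectable at this depth.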

Other observations

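The 4 even rows fell into 2 pairs for the Bcl2a1 copies. Rows 12 and 14 had Bcl2a1b at 171 and 164 CPM and rows 16 and 18 at 221 and 219 CPM, and Bcl2a1d was at 82.8 and 79.0 CPM in the former pair and 116 and 129 CPM in the latter. Bax split the same rows, at 192 and 185 CPM and at 237 and 221 CPM, as did Bak1, at 47.4 and 42.8 CPM and at 52.1 and 57.9 CPM. For Bak1 the intervals of rows 12 (42.1 to 53.2 CPM) and 16 (43.2 to 62.4 CPM) overlapped. The remaining members did not divide these pairs. The pairs were seen in the values, and the share of all genes that divide them is not given. Kidins220, the gene deleted in the T-KO, was at 28.4 and 35.2 CPM in rows 12 and 14 and at 17.5 and 20.4 CPM in rows 16 and 18. Its intervals in rows 12 (24.3 to 33.0 CPM) and 18 (16.6 to 24.9 CPM) overlapped, and row 16 rested on 40 UMIs. In the odd rows 11, 13, 15 and 17 Kidins220 was at 19.7, 21.03, 14.5 and 13.9 CPM. No row was given a genotype from these levels. Within the Izumo1r cells, Bcl2a1b was at 219 and 208 CPM in rows 12 and 14 and at 311 and 277 CPM in rows 16 and 18. The labels do not say which populations these rows hold, and the differences were not tested.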
